A study of Mus musculus with 54 samples.

Results

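The genes described here are 10 scavenger and efferocytosis genes of mouse macrophages, chosen by their symbols: the class A scavenger receptors Marco and Msr1, the class B scavenger receptors Scarb1 and Scarb2, the stabilin Stab1, the receptor tyrosine kinases Mertk and Axl, their ligands Gas6 and Pros1, and the secreted scavenger receptor protein Cd5l. They are 10 of 39179 gene identifiers in the deposited count tables, and all 10 passed the filter on low counts in both experiments, where 16110 and 14172 genes were tested. The cells were adherent peritoneal exudate cells of C57BL/6 mice of 8 to 20 weeks, collected 4 days after an injection of thioglycolate, so that they are mostly elicited macrophages. In the polarization experiment, macrophages of 3 mice were cultured for 24 h without stimulus (M0), with LPS at 100 ng/ml plus IFNγ at 50 ng/ml (M1-like), or with IL-4 at 10 ng/ml (M2-like), and each mouse and condition gave 2 technical replicates, which were summed. In the reprogramming experiment, M0, M1-like and M2-like macrophages were left untransfected or mock-transfected with the reagent alone, and M2-like macrophages were transfected with a negative siRNA pool, with a pool against E2f1, Myc, Pparg or Stat6, or with a combined pool against all 4, giving 12 conditions with 3 replicates. Cells were harvested 48 h after transfection, without IL-4 in the medium. The methods of the study place the sequencing of macrophages without transfection at 24 h of polarization, without naming the untransfected macrophages of this experiment, so that mock and untransfected macrophages may differ in culture time as well as in the reagent. In their section on RNA extraction and quantitative PCR, the methods give 3 biological replicates for each polarization state and for the combined knockdown. The labels do not tie the replicates of the reprogramming experiment to mice, and its p-values measure the spread between these samples. No transgene or deletion is named for any group, and knockdown was transient.

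Scavenger receptors bind modified lipoproteins, polyanions and microbial surfaces and bring them into the cell. Efferocytosis, the uptake of apoptotic cells, uses in part the TAM receptors (Tyro3, Axl and Mertk), which do not touch the dying cell directly but bind Gas6 or protein S (the product of Pros1), and these ligands hold on to phosphatidylserine exposed on the dying cell. Signalling through TAM receptors is also known to dampen the response to Toll-like receptors through Socs1 and Socs3.

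The genes lie on 8 chromosomes (GRCm38, GENCODE M21). Marco (ENSMUSG00000026390) is at chr1:120474538-120505024 on the minus strand, Mertk (ENSMUSG00000014361) at chr2:128698956-128802894 on the plus strand, Cd5l (ENSMUSG00000015854) at chr3:87357881-87371073 on the plus strand, and Axl (ENSMUSG00000002602) at chr7:25757273-25788705 on the minus strand. Scarb2 (ENSMUSG00000029426) at chr5:92441314-92506833 and Scarb1 (ENSMUSG00000037936) at chr5:125277087-125341094 share a chromosome, as do Gas6 (ENSMUSG00000031451) at chr8:13465374-13494490 and Msr1 (ENSMUSG00000025044) at chr8:39581685-39642673, all on the minus strand. Stab1 (ENSMUSG00000042286) is at chr14:31139013-31168641 on the minus strand and Pros1 (ENSMUSG00000022912) at chr16:62854307-62929346 on the plus strand. Exons of Stab1 overlap exons of Nt5dc2, and exons of Gas6 overlap exons of Tmem255b, in both cases on the opposite strand. Whether counting used the strand is not given in the sources used here, so some reads of these pairs may not be told apart. No exon of the other 8 genes overlaps another gene.

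The promoters of the TAM receptors and of their ligands are shown because the receptors rose and the ligands fell in M1-like macrophages 24 h after stimulation. Each sequence holds the 250 bases before the RefSeq start of the gene (GRCm38.p6), 5′ to 3′ on the strand of the gene. Capitals mark matches, on either strand, to the GC box GGGCGG, the core motif of PU.1 GAGGAA, the interferon-gamma activated site TTCNNNGAA or the STAT6 motif TTCNNNNGAA.
Mertk (chr2:128698665-128698914, plus strand): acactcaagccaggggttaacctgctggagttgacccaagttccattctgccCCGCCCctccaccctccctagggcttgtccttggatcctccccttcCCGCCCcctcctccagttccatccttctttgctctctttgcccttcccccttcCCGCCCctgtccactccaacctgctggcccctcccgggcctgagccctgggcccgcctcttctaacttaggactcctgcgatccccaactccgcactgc
Axl (chr7:25788734-25788983, minus strand): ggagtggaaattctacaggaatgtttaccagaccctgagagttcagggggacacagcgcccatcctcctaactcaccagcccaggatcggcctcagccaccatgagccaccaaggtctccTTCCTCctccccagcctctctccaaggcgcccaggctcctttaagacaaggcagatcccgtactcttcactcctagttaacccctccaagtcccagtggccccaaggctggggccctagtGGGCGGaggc
Gas6 (chr8:13494536-13494785, minus strand): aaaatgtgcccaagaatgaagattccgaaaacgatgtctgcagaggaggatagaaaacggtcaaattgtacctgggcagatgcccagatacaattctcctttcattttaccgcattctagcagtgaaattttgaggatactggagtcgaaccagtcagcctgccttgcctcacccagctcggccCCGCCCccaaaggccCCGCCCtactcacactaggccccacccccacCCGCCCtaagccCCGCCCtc
Pros1 (chr16:62854057-62854306, plus strand): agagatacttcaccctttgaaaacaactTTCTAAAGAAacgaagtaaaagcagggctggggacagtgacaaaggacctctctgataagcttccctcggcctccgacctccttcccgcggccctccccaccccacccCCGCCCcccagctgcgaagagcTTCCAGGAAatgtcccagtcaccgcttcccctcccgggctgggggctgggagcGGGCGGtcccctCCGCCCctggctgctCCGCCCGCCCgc

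All 4 promoters hold a GC box, which 32.7% of the 32851 RefSeq promoters of this length hold, and Pros1 has the most of the 4, with 5 matches, of which 2 overlap. The interferon-gamma activated site, held by 7.02% of all promoters, and the STAT6 motif, held by 5.85%, occurred in Pros1, at bases 92 to 84 and 222 to 213 before its start, and the STAT6 motif also in Cd5l, at bases 250 to 241. The PU.1 core, held by 23.3% of all promoters, was found in Axl, and also in Marco, Stab1 and Cd5l. Of the 8 genes with a RefSeq promoter, 0 held the E-box of MYC CACGTG (6.02% of all promoters), an E2F motif TTTGGCGC or TTTCCCGC (1.3%) or the nuclear receptor half-site AGGTCA (14.0%) in these 250 bases. Msr1 and Scarb1 are named only.

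Libraries of the polarization experiment held 19714994 to 29880494 counted reads, and 39577911 to 59443987 after technical replicates were summed. Libraries of the reprogramming experiment held 13421854 to 19704195. Macrophage markers (Adgre1, Csf1r, Itgam, Lyz2, Fcgr1, Cd14 and Cd68) were present in all conditions, with a summed level of 6327 to 18245 CPM (read counts scaled by TMM library sizes, so that levels compare between libraries), and the 9 neutrophil markers summed to 3.83 to 14.4 CPM. Most of the latter was S100a8, at 3.10 to 13.4 CPM, while Ly6g reached at most 0.562 CPM, in M1-like macrophages of the polarization experiment, and was at 0 in all other groups. Per kilobase of exon, the level in M0 macrophages of the polarization experiment was highest for Cd5l (48.005 ± 19.2 CPM per kb, SD, n = 3 mice), Msr1 (43.9 ± 2.65) and Marco (36.0 ± 7.31), intermediate for Mertk (20.9 ± 0.388), Scarb2 (20.7 ± 0.718), Pros1 (18.5 ± 1.39) and Gas6 (12.7 ± 2.45), and lowest for Stab1 (9.47 ± 1.5005), Scarb1 (8.34 ± 0.453) and Axl (4.35 ± 0.761).

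After 24 h with LPS and IFNγ, both TAM receptors among the 10 genes rose and both ligands fell. Mertk, the receptor that macrophages are known to use for apoptotic cells in the steady state, was at 88.9, 91.2 and 92.2 CPM in the 3 mice without stimulus, at 603, 605 and 633 CPM in M1-like and at 71.4, 75.5 and 79.7 CPM in M2-like macrophages. The 3 groups did not overlap, and Mertk was 6.76-fold higher in M1-like macrophages than in M0 (log2 fold change 2.76 ± 0.06 SE, adjusted p = 2.91e-12) and 8.12-fold higher than in M2-like macrophages (3.02 ± 0.06, adjusted p = 1.61e-12). Axl, a TAM receptor known to be induced by interferon, was at 19.7, 26.3 and 19.6 CPM in M0, at 447, 515 and 476 CPM in M1-like and at 18.6, 23.0 and 17.1 CPM in M2-like macrophages. All M1-like samples were above all others, by 21.9-fold against M0 (4.45 ± 0.14, adjusted p = 4.87e-11) and 24.5-fold against M2-like macrophages (4.61 ± 0.14, adjusted p = 3.9e-11). Per kilobase, Axl had the lowest level of the 10 genes in M0 and stood at 95.2 ± 6.77 CPM per kb in M1-like macrophages, next to Mertk at 142 ± 3.88 and Marco at 144 ± 22.4.

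Gas6, the ligand of all TAM receptors, went the other way. It was at 37.3, 34.4 and 25.3 CPM in M0, at 2.03, 1.69 and 1.25 CPM in M1-like and at 8.15, 11.7 and 8.795 CPM in M2-like macrophages, so that the 3 groups were apart from each other. Its level fell by 4.31 ± 0.21 on the log2 scale in M1-like against M0 macrophages (adjusted p = 2.37e-09), which is 19.8-fold, and was also lower in M2-like than in M0 macrophages (-1.76 ± 0.17, adjusted p = 2.18e-05). Pros1, which codes for protein S, was at 80.6, 69.5 and 77.1 CPM in M0, at 28.3, 29.5 and 24.6 CPM in M1-like and at 98.4, 81.9 and 82.4 CPM in M2-like macrophages. It was lower in M1-like macrophages than in M0 (-1.47 ± 0.09, adjusted p = 3.02e-08) and than in M2-like macrophages (-1.67 ± 0.09, adjusted p = 9.08e-09). The M2-like samples lay just above the M0 samples, and that difference did not pass the test (0.21 ± 0.09, adjusted p = 0.108).

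The scavenger receptors of M1-like macrophages did not move one way. Marco, which binds bacteria and particles, was at 71.6, 54.1 and 81.9 CPM in M0 and at 287, 230.2 and 315 CPM in M1-like macrophages, a 4.01-fold rise (2.003 ± 0.19, adjusted p = 1.07e-06). Scarb1, the receptor for high-density lipoprotein, was at 75.2, 69.8 and 67.7 CPM in M0, at 16.6, 17.6 and 19.0 CPM in M1-like and at 39.6, 44.2 and 47.9 CPM in M2-like macrophages. It fell under both stimuli, with log2 fold changes of -1.997 ± 0.08 for LPS and IFNγ (adjusted p = 5.39e-10) and -0.69 ± 0.08 for IL-4 (adjusted p = 7.53e-05). Scarb2, the lysosomal membrane protein that brings glucocerebrosidase to lysosomes, rose little, with 128 to 135 CPM in M0 and 155 to 161 CPM in M1-like macrophages (0.27 ± 0.05, adjusted p = 0.000615). Msr1, a receptor for modified lipoproteins, was at 279, 262 and 295 CPM in M0, at 171, 158 and 225 CPM in M1-like and at 301, 205 and 219 CPM in M2-like macrophages. It was lower in M1-like macrophages than in M0 (-0.59 ± 0.15, adjusted p = 0.00354), while its M1-like and M2-like samples overlapped (-0.39 ± 0.15, adjusted p = 0.0349), and this second call was lost with RLE size factors, in a model of these groups alone, or without mouse 1 or 2 of the M1-like or mouse 1 of the M2-like samples (log2 fold change -0.33 to -0.20 in the last 3).

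Stab1, an endocytic receptor known from endothelial cells and from macrophages treated with IL-4, was lowest with IL-4. It was at 107, 106 and 79.6 CPM in M0, at 50.6, 51.0 and 80.8 CPM in M1-like and at 27.1, 31.6 and 34.5 CPM in M2-like macrophages. M0 and M1-like samples overlapped, and the difference passed the test (log2 fold change of M1-like against M0 -0.68 ± 0.17, adjusted p = 0.00388). The M2-like samples were below all others, with log2 fold changes of -1.65 ± 0.18 against M0 (adjusted p = 5.1e-05) and of 0.97 ± 0.18 for M1-like against M2-like macrophages (adjusted p = 0.000367). Cd5l, the apoptosis inhibitor of macrophages, varied most between mice relative to its mean in M0 macrophages among the 10 genes. It was at 82.2, 68.9 and 142 CPM in M0, at 89.5, 81.0 and 167 CPM in M1-like and at 135, 115 and 207 CPM in M2-like macrophages, and no comparison passed the test without the mouse in the model. Cd5l was nevertheless higher with IL-4 than without stimulus in 3 of 3 mice, and with the mouse as a block the difference passed (0.66, adjusted p = 4.82e-05), as did those of M1-like against M0 (0.20, adjusted p = 0.0213) and against M2-like macrophages (-0.47, adjusted p = 7.72e-05). The block also brought Marco past the test for M2-like against M0 macrophages (0.26, adjusted p = 0.0308), where the fit without it gave 0.26 ± 0.18 with an adjusted p of 0.308. Mertk was slightly lower with IL-4 (-0.27 ± 0.06, adjusted p = 0.00639).

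**Figure D1:**
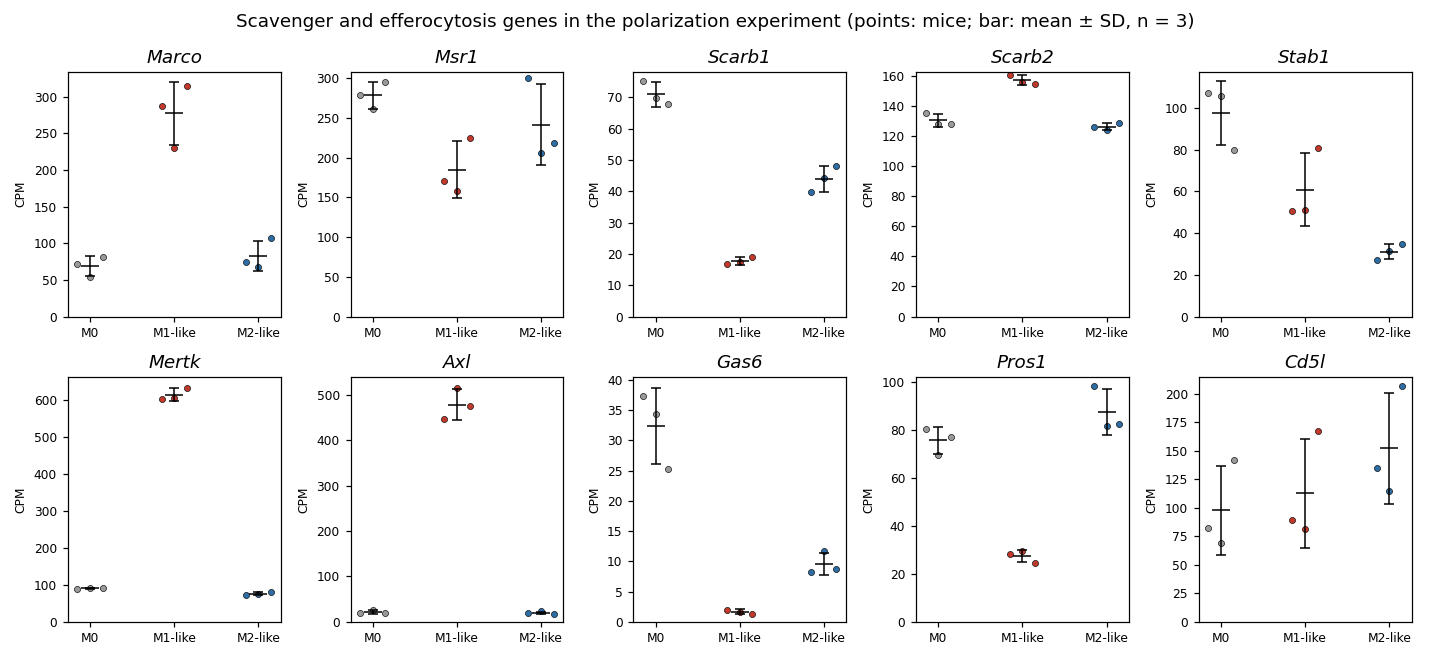
Levels of the 10 genes in the polarization experiment in CPM (vertical axes, from 0) for M0, M1-like and M2-like macrophages. Points are the 3 mice and bars the mean ± SD. Mertk, Axl and Marco are highest and Gas6, Pros1 and Scarb1 lowest in M1-like macrophages, and the groups of Cd5l overlap.

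In M1-like against M0 macrophages, 9 of the 10 genes passed the test (adjusted p under 0.05), 4 higher and 5 lower, where 72.9% of all genes tested passed. The same count, 5 higher and 4 lower, was reached against M2-like macrophages, where 72.6% of all genes passed, and 4 of 10, all lower, passed in M2-like against M0 macrophages, where 27.9% of all genes passed. The shares of called members lie somewhat above these backgrounds, over only 10 genes, and are not read as a result about them. The median log2 fold change of the 10 genes was -0.19, -0.04 and -0.18 in these comparisons, beside -0.04, -0.06 and 0.00 for all genes tested.

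Other genes of these systems were compared by lists, beside the 72.9% of all genes that passed in M1-like against M0 macrophages. Of 14 other scavenger receptor genes, 11 were tested and 3 rose and 7 fell in M1-like against M0 macrophages. The mannose receptor Mrc1 (-5.73 ± 0.13) and Cd36 (-4.85 ± 0.13), a receptor for oxidized lipids, fell, while the membrane-bound chemokine Cxcl16 rose (4.78 ± 0.11). Of 18 other receptors and bridging molecules for apoptotic cells, 15 were tested and 6 rose and 7 fell. Among them the lipid sensor Trem2 (-4.47 ± 0.12) and the integrin subunit Itgb5 (-4.27 ± 0.10) fell, and thrombospondin 1 (Thbs1) rose (4.38 ± 0.28). Of 7 genes for shedding of TAM receptors and for feedback, 4 rose and 2 fell, and Socs1 (8.81 ± 0.20), Socs3 (6.38 ± 0.12) and Rhbdf2 (2.24 ± 0.09), which helps the sheddase Adam17 reach the cell surface, were among those that rose. The engulfment signalling genes were split, with 6 higher and 5 lower of 13 tested, as were the do-not-eat-me genes, with 3 higher and 3 lower of 7. Abca1, the cholesterol exporter, rose (2.92 ± 0.18), Cd47 rose (1.62 ± 0.07), and its receptor Sirpa fell (-1.04 ± 0.06). Of 12 nuclear receptors and macrophage factors, 11 were tested, 4 rose and 5 fell, and Pparg was among those that fell (-6.57 ± 0.10). The adjusted p of each gene named here is at most 2.55e-08.

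Most fibroblast markers and all mesothelial markers tested were lower in M1-like macrophages than in M0, as were the ligands. Markers of fibroblasts, which also express Gas6, (Col1a1, Col1a2, Col3a1, Dcn, Pdgfra and Lum) summed to 21.0 to 34.3 CPM in M0, 9.40 to 12.6 CPM in M1-like and 16.5 to 22.6 CPM in M2-like macrophages, with 4 lower and 1 higher of 5 tested in M1-like against M0. Mesothelial markers summed to at most 2.11 CPM in the groups of this experiment, and 3 of 3 tested were lower in M1-like macrophages than in M0. Fewer cells of a type and less RNA per cell cannot be told apart in these samples, and the part of these cells in the fall of Gas6 and Pros1 was not tested. B cell markers passed in 0 of 7 for M1-like against M0 by edgeR, T cell markers were 1 higher and 1 lower of 2, neutrophil markers 2 higher and 1 lower of 3, dendritic cell markers 2 higher and 1 lower of 4, and mast cell and eosinophil markers 2 lower of 3 and 1 lower of 2. Markers of resident large peritoneal macrophages, which are known to express Cd5l and Marco, were 3 higher and 4 lower of 8. In M2-like against M0 macrophages, where Cd5l and Marco were higher with the mouse as a block, 4 of these 8 were higher, with a summed level of 63.5 to 101 CPM in M0 and 106 to 164 CPM in M2-like macrophages, and their part in the result was not tested.

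In the reprogramming experiment, the ligands were again low in M1-like macrophages. Of the receptors, Mertk turned in direction against M2-like macrophages, while Axl was again higher without transfection and did not pass in mock. Gas6 was at 69.1, 51.2 and 50.2 CPM in untransfected M0, at 9.89, 6.96 and 10.5 CPM in M1-like and at 44.9, 52.6 and 45.5 CPM in M2-like macrophages, 5.22-fold lower in M1-like than M2-like macrophages (-2.38 ± 0.16, adjusted p = 1.03e-14). The mock libraries gave 10.2, 8.59 and 10.2 CPM in M1-like and 47.0, 47.5 and 47.1 CPM in M2-like macrophages (-2.29 ± 0.15, adjusted p = 1.93e-14). Pros1 was at 39.1, 36.5 and 43.5 CPM in untransfected M1-like and at 110, 116 and 104 CPM in M2-like macrophages (-1.47 ± 0.11, adjusted p = 5.61e-13), and the difference in mock was -1.21 ± 0.11 (adjusted p = 5.07e-11). In both settings the M1-like samples of both ligands lay below all M2-like samples.

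Mertk was lower in M1-like than M2-like macrophages here. It was at 121, 126 and 114 CPM in untransfected M1-like, at 186, 184 and 164 CPM in M2-like and at 109, 116 and 91.2 CPM in M0 macrophages. Between M1-like and M2-like macrophages the log2 fold change was -0.56 ± 0.09 (adjusted p = 1.32e-06), and -0.51 ± 0.09 in mock (adjusted p = 6.44e-06), whereas it was 3.02 in the polarization experiment. Untransfected M2-like macrophages were above M0 (0.75 ± 0.09, adjusted p = 1.08e-07). For M1-like against M0 the value was 0.19 ± 0.09 without transfection, which did not pass (adjusted p = 0.0616), and -0.29 ± 0.09 in mock (adjusted p = 0.00526). Axl was at 126, 67.3 and 122 CPM in untransfected M1-like, at 51.7, 66.5 and 48.5 CPM in M2-like and at 47.3, 44.0 and 39.4 CPM in M0 macrophages. It was higher in M1-like than M2-like macrophages by 1.89-fold (0.92 ± 0.18, adjusted p = 6.77e-05), with the lowest M1-like library just above the highest M2-like one. In mock the groups overlapped and the difference did not pass (0.07 ± 0.18, adjusted p = 0.773). The difference between these 2 effects, tested as an interaction, did not pass over all genes either (-0.86 ± 0.26, adjusted p = 0.151).

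Cd5l was lowest in M1-like macrophages, and Stab1 was highest without stimulus. Cd5l was at 16.97, 10.1 and 14.1 CPM in untransfected M1-like macrophages, below all samples of M2-like (78.8, 84.0 and 55.0 CPM) and of M0 macrophages (124, 114 and 81.0 CPM), and it was 5.27-fold lower in M1-like than M2-like macrophages (-2.40 ± 0.39, adjusted p = 3.62e-06) and 6.78-fold lower in mock (-2.76 ± 0.40, adjusted p = 4.1e-07). Stab1 was at 212, 201 and 227 CPM in untransfected M0, at 29.7, 35.5 and 31.6 CPM in M1-like and at 37.6, 80.2 and 52.8 CPM in M2-like macrophages. The M0 level was above the others by 6.61-fold against M1-like (M1-like against M0 -2.72 ± 0.26, adjusted p = 1.7e-10) and by 3.74-fold against M2-like macrophages (M2-like against M0 -1.90 ± 0.25, adjusted p = 1.26e-06). Stab1 was lower in M1-like than M2-like macrophages (-0.82 ± 0.26, adjusted p = 0.00744), a call that was lost without replicate 2 of the M2-like macrophages (-0.49), and in mock without replicate 3 of the M2-like macrophages (-0.66 against -0.84 ± 0.26 with all).

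Msr1 and Scarb1 were lower and Scarb2 was higher in M1-like macrophages in both experiments, with the limits given above for Msr1. Msr1 was at 154 to 185 CPM in untransfected M1-like and 241 to 326 CPM in M2-like macrophages (-0.67 ± 0.14, adjusted p = 7.77e-05), Scarb1 at 45.9 to 60.6 and 77.5 to 101 CPM (-0.78 ± 0.10, adjusted p = 6.73e-08), and Scarb2 at 173 to 217 and 134 to 141 CPM (0.51 ± 0.07, adjusted p = 2e-07). The values in mock were -0.87 ± 0.14, -0.77 ± 0.10 and 0.36 ± 0.07. Marco was at 23.4, 15.8 and 18.0 CPM in untransfected M1-like and at 6.15, 9.73 and 5.09 CPM in M2-like macrophages (1.44 ± 0.51, adjusted p = 0.015), and this call was lost without replicate 1 of the M1-like (1.27) or replicate 3 of the M2-like macrophages (1.26). In mock the difference was 0.62 ± 0.50 and did not pass (adjusted p = 0.297).

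**Figure D2:**
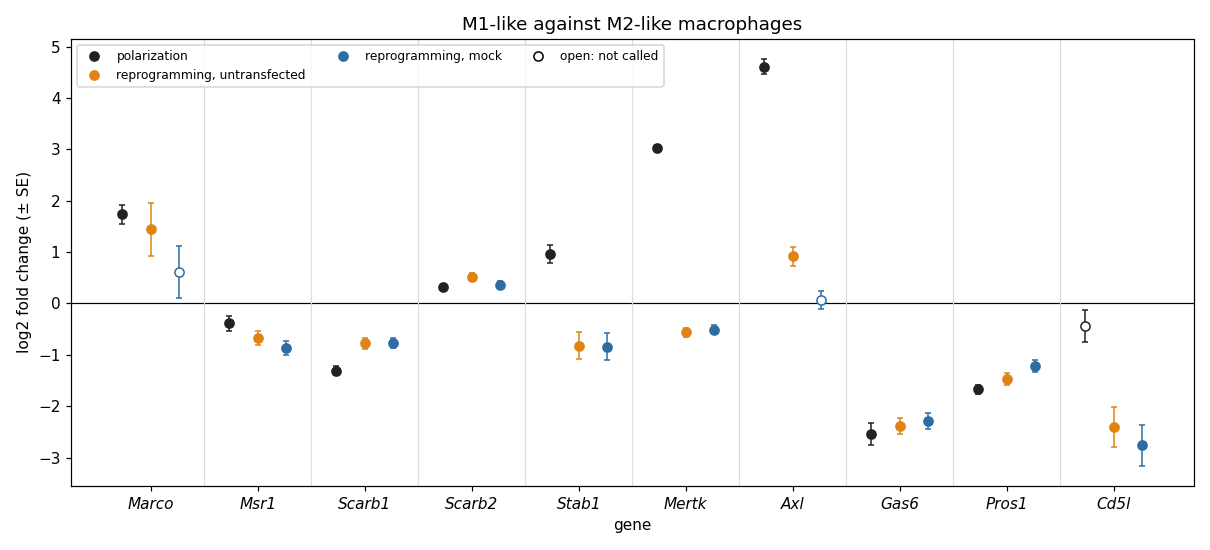
Log2 ratio of M1-like to M2-like macrophages (vertical axis) for each gene (horizontal axis) in the polarization experiment, and in untransfected and mock macrophages of the reprogramming experiment. Bars are SE and open points did not pass the test. Mertk and Stab1 are above 0 in the polarization experiment (3.02 and 0.97) and below 0 in the reprogramming experiment, and Gas6 and Pros1 are below 0 in all 3.

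Of the 10 genes, 10 passed in untransfected M1-like against M2-like macrophages, 3 higher and 7 lower, where 61.5% of all genes passed, and 8 passed in mock, 1 higher and 7 lower, where 60.7% of all genes passed. Their median was -0.72 and -0.80, beside 0.03 for all genes in both. Against M0, 9 of 10 passed in untransfected M1-like macrophages (57.7% of all genes) and 9 in mock (60.4%), each with 2 higher and 7 lower. For M2-like against M0 macrophages, 4 passed without transfection, 2 in each direction (19.9% of all genes), namely Mertk and Pros1 (0.39 ± 0.11, lost without replicate 3 of M0) as higher and Marco and Stab1 as lower, and 2 passed in mock (3.83% of all genes), which were Stab1 (-1.51 ± 0.25, adjusted p = 0.00028) and Gas6 (-0.85 ± 0.13, adjusted p = 0.000119). The interaction of the M1-like against M2-like difference with mock passed for 0 of 10 genes by edgeR, where 1.13% of all genes passed, and 1 of the 10, Axl, had an unadjusted p under 0.05. DESeq2 called 0 of 10 as well.

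Other cells also differed between these conditions. Fibroblast markers summed to 127 to 249 CPM in untransfected M0, 33.3 to 96.1 CPM in M1-like and 113 to 384 CPM in M2-like macrophages, and 4 of 6 were lower in M1-like than M2-like macrophages, with 6 of 6 lower in mock. Mesothelial markers were lower in 4 of 4 tested in both settings, with a summed level of at most 0.638 CPM in M1-like and at least 5.79 CPM in M2-like untransfected and mock macrophages. B cell markers summed to 4.70 to 21.4 CPM in M1-like and 18.6 to 79.4 CPM in M2-like macrophages, with 6 of 7 lower in both. The macrophage markers were lower as well, at 6327 to 7974 CPM in M1-like and 14669 to 18245 CPM in M2-like macrophages. Markers of resident large peritoneal macrophages summed to 27.6 to 39.8 CPM in untransfected M1-like and 35.3 to 70.3 CPM in M2-like macrophages. In the same groups, T cell markers summed to 3.11 to 4.86 and 35.8 to 50.4 CPM, and eosinophil markers to 0.610 to 1.70 and 15.5 to 18.1 CPM. Neutrophil markers went the other way, at 12.2 to 13.2 and 4.77 to 11.8 CPM. The part of these changes in the lower levels of Gas6, Pros1, Cd5l and Stab1 was not tested.

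Pathway lists gave similar counts without transfection and in mock, where 61.5% and 60.7% of all genes passed. Of 14 other scavenger receptors, 13 were tested and 2 rose and 8 fell in untransfected M1-like against M2-like macrophages (median -1.25), and 2 rose and 9 fell in mock. Mrc1 (-3.85 ± 0.16) and Cd36 (-3.46 ± 0.14) fell and Cxcl16 rose (2.75 ± 0.15). Of 16 tested receptors and bridging molecules for apoptotic cells, 5 rose and 9 fell, and Mfge8, another bridge to phosphatidylserine (-2.40 ± 0.08), and Anxa1 (-2.67 ± 0.10) were among the latter, while Thbs1 rose (3.87 ± 0.38). Abca1, which had risen in M1-like against M2-like macrophages of the polarization experiment (2.46 ± 0.17), was lower here (-1.83 ± 0.17), and of the 14 engulfment signalling genes 2 rose and 9 fell. Socs1 (4.53 ± 0.31) and Socs3 (4.38 ± 0.47) rose. Of the 11 nuclear receptors and macrophage factors tested, 2 rose and 8 fell, with Nr1h3, the oxysterol receptor LXRα, at -1.90 ± 0.13. The adjusted p of each of these genes is at most 1.4e-09 in untransfected macrophages, and that of Abca1 in the polarization experiment was 7.55e-08.

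Mock and untransfected M0 macrophages differed in 5 of the genes, with the widest difference in Marco. The reagent and a possible difference in culture time cannot be told apart in this comparison. Marco was at 65.2, 70.7 and 38.5 CPM in untransfected M0 and at 1.26, 2.31 and 5.68 CPM in mock M0 macrophages, an 18.9-fold difference (-4.24 ± 0.55, adjusted p = 6.56e-07) between groups that did not overlap. The sign of the M1-like against M0 difference of Marco therefore differed between settings: it was -1.61 ± 0.45 without transfection (adjusted p = 0.00269) and 2.13 ± 0.58 in mock (adjusted p = 0.00206). Cd5l fell from 124, 114 and 81.0 CPM to 43.1, 31.9 and 58.7 CPM (-1.26 ± 0.35, adjusted p = 0.0102), which did not pass without replicate 2 of mock M0 (-1.06). Axl rose from 47.3, 44.0 and 39.4 CPM to 77.0, 106 and 106 CPM (1.15 ± 0.19, adjusted p = 2.64e-05), Mertk from 109, 116 and 91.2 CPM to 153, 137 and 144 CPM (0.45 ± 0.09, adjusted p = 0.000235), and Gas6 from 69.1, 51.2 and 50.2 CPM to 70.1, 73.8 and 111 CPM (0.58 ± 0.13, adjusted p = 0.00137). Markers of resident large peritoneal macrophages moved with Marco and Cd5l: their summed level was 53.0 to 131 CPM in untransfected and 32.5 to 38.3 CPM in mock M0 macrophages, 4 of 8 were lower and 1, Gata6 (0.70 ± 0.19), was higher, and their part in the result was not tested.

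Fewer of the genes passed for mock against untransfected M1-like and M2-like macrophages. In M2-like macrophages 1 of 10 genes passed, Axl, which rose from 51.7, 66.5 and 48.5 CPM to 74.9, 126 and 93.8 CPM (0.82 ± 0.18, adjusted p = 0.00806) but not without replicate 2 of mock or without replicate 1 or 3 of untransfected M2-like macrophages (0.60 to 0.77). In M1-like macrophages edgeR called 0 of 10 genes, with 0 at an unadjusted p under 0.05, and 0 of all genes with 438 at an unadjusted p under 0.05, and DESeq2 called 0 with 411. Mock and untransfected M1-like libraries with the same replicate number differed by a chi-square per gene of 3.11 to 6.30, and those with different numbers by 10.4 to 26.4, against 1.07 to 1.09 for technical replicates in the polarization experiment. The difference of the mock effect between M0 and the other macrophages, a contrast added after these values were seen, passed for Marco (-3.73 ± 0.73 against M1-like, adjusted p = 0.000693, and -4.56 ± 0.78 against M2-like, adjusted p = 0.000362), for Mertk (0.48 ± 0.12, adjusted p = 0.011, and 0.53 ± 0.12, adjusted p = 0.0074) and, against M1-like macrophages, for Axl (1.18 ± 0.26, adjusted p = 0.0024). For Mertk against M1-like macrophages it did not pass without replicate 3 of untransfected M0 (0.38). Of the 10 genes, 5 passed for mock against untransfected M0 (20.4% of all genes), 0 in M1-like (0% of all genes) and 1 in M2-like macrophages (1.77% of all genes), and 3 and 2 passed for the 2 differences between mock effects (9.07% and 5.66% of all genes).

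**Figure D3:**
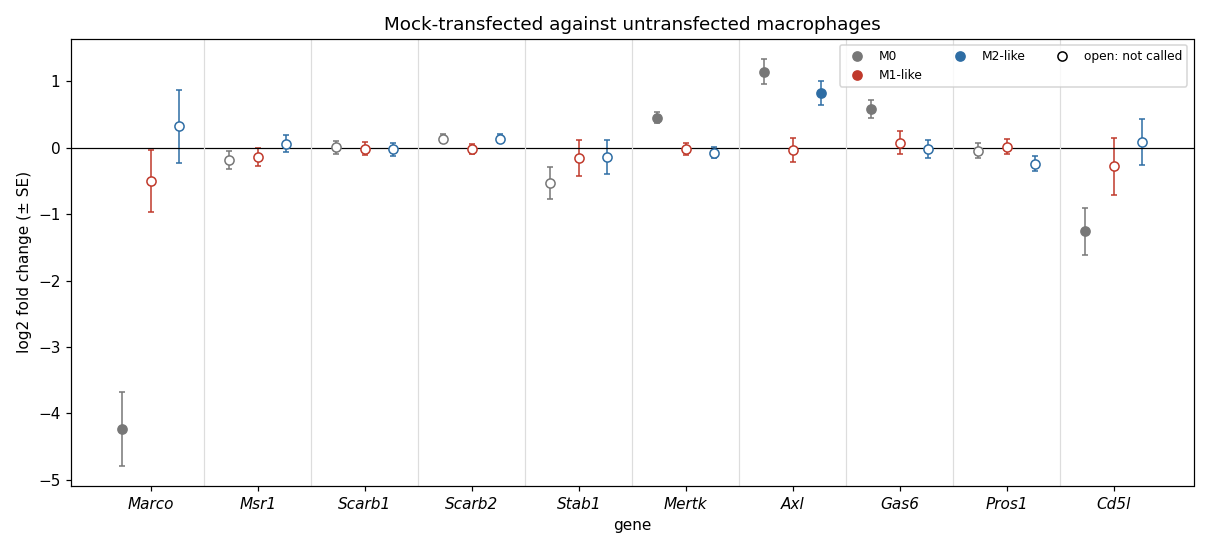
Log2 fold change of mock-transfected against untransfected macrophages (vertical axis) for each gene (horizontal axis) in M0, M1-like and M2-like macrophages. Bars are SE and open points did not pass the test. Marco in M0 macrophages is at -4.24, far from the values in M1-like (-0.50) and M2-like macrophages (0.32).

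The siRNA pools were compared in M2-like macrophages, to see whether lowering E2f1, Myc, Pparg and Stat6 moves these genes towards their M1-like levels. The methods of the study name Dharmacon as supplier for Myc and siTools Biotech for E2f1, Pparg and Stat6. They name no supplier of the negative pool. For the pool against Myc, and for what it shares with the combined pool, target and supplier cannot be told apart. Against the negative pool, E2f1 was at 25.2% ± 4.05 (SD, n = 3) with its own pool and 60.4% ± 2.01 with the combined pool, Myc at 38.0% ± 8.01 and 39.6% ± 3.20, Pparg at 21.9% ± 2.57 and 28.3% ± 2.25, and Stat6 at 27.3% ± 5.79 and 53.9% ± 4.82. The negative pool had less E2f1 (17.3 to 22.0 CPM) than mock (25.7 to 28.3 CPM), beside 11.9 to 12.6 CPM with the combined pool. Pparg was also called lower with the other single pools. It was at 65.2% ± 5.72 with the pool against Myc (adjusted p = 6.82e-07 by edgeR). With the pools against E2f1 and Stat6 it was at 79.6% ± 3.92 (adjusted p = 0.0366) and 78.4% ± 1.26 (adjusted p = 0.016). These percentages depend on the reference, since Pparg was at 123 to 138 CPM with the negative pool and 112 to 128 CPM in mock. The pools against E2f1 (97.8 to 107 CPM) and Stat6 (100 to 104 CPM) lay below all samples of both.

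The negative pool itself raised 3 of the 10 genes against mock, where 11.7% of all genes passed. Axl was at 74.9, 126 and 93.8 CPM in mock and at 212, 229.9 and 235 CPM with the negative pool (1.20 ± 0.18, adjusted p = 1.83e-05), Scarb2 at 145, 158 and 151 CPM and at 188, 179 and 198 CPM (0.32 ± 0.07, adjusted p = 0.00241), and Gas6 at 47.0, 47.5 and 47.1 CPM and at 67.4, 63.3 and 65.4 CPM (0.47 ± 0.13, adjusted p = 0.017). None of these groups overlapped, although the call of Gas6 was lost without replicate 1 or 3 of mock or replicate 1 of the negative pool (0.45 to 0.47). Pros1 was at 84.8 to 98.8 CPM in mock and at 70.4 to 77.7 CPM with the negative pool, which did not pass by edgeR. It was called lower by DESeq2 (-0.33, adjusted p = 0.0333), and by edgeR with RLE size factors (-0.33, adjusted p = 0.0453) or the replicate block (-0.31, adjusted p = 0.0423).

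Pros1 fell with the combined pool and with the pool against Myc. It was at 77.7, 70.4 and 76.7 CPM with the negative pool, at 39.4, 44.5 and 35.5 CPM with the combined pool (-0.91 ± 0.11, adjusted p = 2.79e-07) and at 39.5, 39.3 and 33.9 CPM with the pool against Myc (-0.99 ± 0.11, adjusted p = 5.47e-08). With the pools against E2f1 (70.6 to 81.7 CPM), Pparg (58.2 to 75.8 CPM) and Stat6 (65.3 to 70.7 CPM), Pros1 did not pass the test against the negative pool, but it was called lower with these 3 pools against mock (-0.32, -0.46 and -0.46, adjusted p = 0.0485, 0.00242 and 0.00422). The negative pool samples of Pros1 were themselves below all mock samples, as given above. Scarb1 and Mertk were lower with the combined pool and the pool against Myc as well. Scarb1 was at 79.2 to 88.1 CPM with the negative pool, at 50.8 to 57.8 CPM with the combined pool (-0.57 ± 0.10, adjusted p = 7.1e-05) and at 56.4 to 58.4 CPM with the pool against Myc (-0.52 ± 0.10, adjusted p = 0.000182). Mertk was at 148 to 155 CPM, 103 to 115 CPM (-0.46 ± 0.09, adjusted p = 0.000135) and 107 to 113 CPM (-0.47 ± 0.09, adjusted p = 0.00011). With the pool against E2f1, Scarb1 was at 60.9 to 64.7 CPM, below all negative pool samples, and did not pass by edgeR. DESeq2 called this difference (-0.39, adjusted p = 0.0186), and edgeR called Scarb1 lower with this pool against mock (-0.48, adjusted p = 0.00111). Gas6 was at 37.3 to 50.7 CPM with the combined pool (-0.56 ± 0.13, adjusted p = 0.00187) and at 38.7 to 42.0 CPM with the pool against Myc (-0.69 ± 0.13, adjusted p = 0.000178), where mock gave 47.0 to 47.5 CPM. With the pools against Pparg and Stat6, which did not pass for Mertk and Gas6 against the negative pool, Mertk was lower (-0.38 and -0.29, adjusted p = 0.00167 and 0.0239) and Gas6 higher (0.67 and 0.73, adjusted p = 0.000373 and 0.000222) against mock. Against mock the differences of Gas6 with the combined pool and the pool against Myc did not pass (-0.09 and -0.22), whereas those of Pros1, Scarb1 and Mertk with the combined pool did (-1.23 ± 0.11, -0.66 ± 0.10 and -0.62 ± 0.09, adjusted p at most 3.22e-06).

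Msr1 went up with the combined pool, to 342, 393 and 386 CPM from 258, 272 and 276 CPM with the negative pool (0.48 ± 0.13, adjusted p = 0.00827). Against mock the difference was 0.37 ± 0.13 (adjusted p = 0.0316), with groups that overlapped, and it was lost without replicate 2 or 3 of the combined pool or replicate 1 or 3 of mock (0.27 to 0.34). Axl did not pass against the negative pool with the combined pool (251, 238 and 270.0 CPM, 0.17 ± 0.18, adjusted p = 0.524) and with the pool against Myc (242, 245 and 268 CPM, 0.16 ± 0.18, adjusted p = 0.529). Its levels with the pools against E2f1 (133 to 160 CPM), Pparg (165 to 178 CPM) and Stat6 (168 to 183 CPM) lay below all negative pool samples, with log2 fold changes of -0.62 ± 0.18, -0.39 ± 0.18 and -0.37 ± 0.18, and did not pass over all genes (adjusted p = 0.0954, 0.217 and 0.391). Against mock, at 74.9 to 126 CPM, the direction turned and Axl was called higher with these 3 pools (0.58, 0.81 and 0.83, adjusted p = 0.031, 0.00123 and 0.00168), as it was with the combined pool and the pool against Myc (both 1.36, adjusted p = 3.06e-07 and 3.24e-07). Scarb2 was the 1 gene called lower with each of these 3 pools, at 146 to 158, 142 to 151 and 143 to 166 CPM (-0.31 ± 0.07, -0.35 ± 0.07 and -0.29 ± 0.07, adjusted p = 0.0226, 0.00167 and 0.0241), and it was lower with the combined pool too (-0.21 ± 0.07, adjusted p = 0.0235). Against mock, at 145 to 158 CPM, the same pools gave 0.01, -0.04, 0.03 and 0.10, none of which passed, and the calls for E2f1, Stat6 and the combined pool were each lost in 4 of 6 fits without 1 replicate. Marco, Stab1 and Cd5l passed with none of the 5 pools by edgeR. Within M2-like macrophages, Marco and Cd5l were highest in replicate 2 and lowest in replicate 3 in 8 of 8 conditions.

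**Figure D4:**
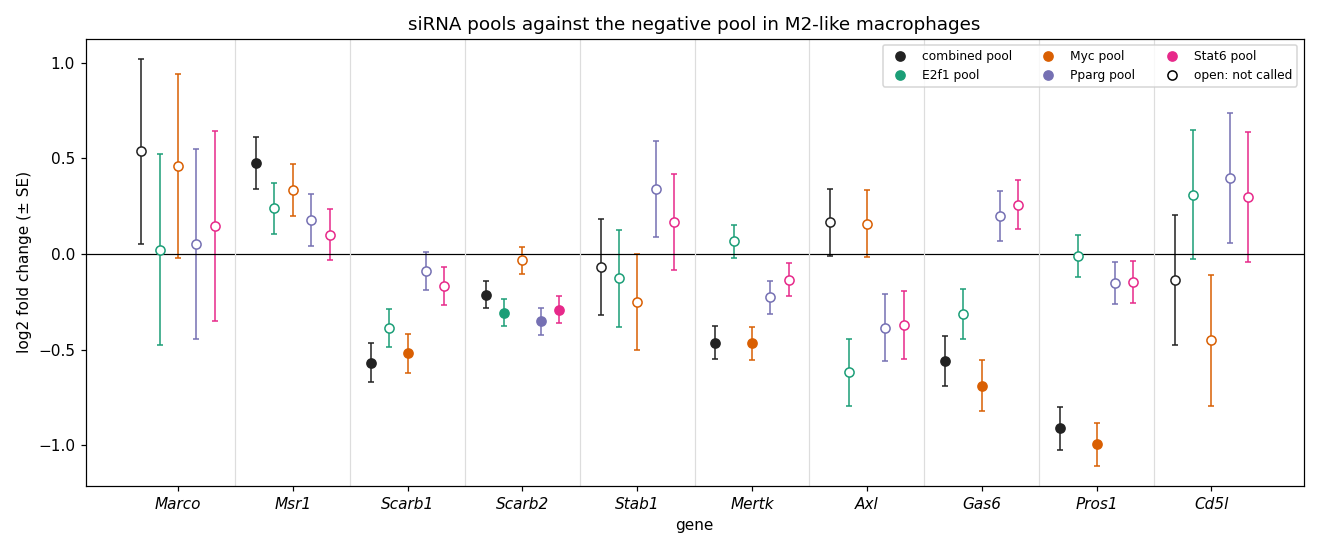
Log2 fold change of each siRNA pool against the negative pool in M2-like macrophages (vertical axis) for each gene (horizontal axis). Bars are SE and open points did not pass the test. The combined pool and the pool against Myc lie together for Scarb1, Mertk, Gas6 and Pros1, with Pros1 at -0.91 and -0.99.

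Against the negative pool, 6 of 10 genes passed with the combined pool, 1 higher and 5 lower (26.5% of all genes), 4 with the pool against Myc, all lower (29.6%), and 1 each with those against E2f1 (0.91%), Pparg (5.74%) and Stat6 (1.51%). Against mock, 5 passed with the combined pool, 2 higher and 3 lower (37.1%). All 5 pools share the same negative pool samples. The median of the 10 genes was -0.18 with the combined pool and -0.35 with the pool against Myc, beside 0.01 and 0.00 for all genes. With the combined pool, 2 of 16 other receptors and bridging molecules for apoptotic cells rose and 6 fell, with Itgb5 (-0.70 ± 0.09) and C1qb (-0.59 ± 0.15) among those that fell, and of the engulfment signalling genes 2 rose and 7 fell, with Dock2 (-0.56 ± 0.08) and Elmo2 (-0.48 ± 0.06), which act together on Rac, among those that fell. With the pool against Myc the same lists gave 1 higher and 5 lower, and 2 higher and 6 lower. Of the 13 other scavenger receptors tested, 3 rose and 3 fell with the combined pool, and Cxcl16 rose (0.75 ± 0.15) and Colec12 fell (-0.74 ± 0.13). The adjusted p of these genes is at most 0.00317. Fibroblast and B cell markers passed in 0 of 6 and 0 of 7 for the combined pool and the pool against Myc by edgeR, where mesothelial markers were lower in 1 and 2 of 4. Macrophage markers were lower in 4 of 7 with the pool against Myc. T cell markers summed to 62.4 to 77.3 CPM with the negative pool, 25.8 to 34.4 CPM with the combined pool and 19.7 to 35.2 CPM with the pool against Myc, and of 3 tested 1 was higher and 1 lower with each of these pools. Most of this sum was Cd28, at 61.0 to 73.4, 22.9 to 31.6 and 17.4 to 29.6 CPM, while Cd3d, Cd3e, Cd3g and Trbc2, which code for parts of the T cell receptor complex, were each at most 0.963 CPM in these groups. The part of these cells in the lower levels of Pros1, Scarb1, Mertk and Gas6 was not tested.

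The combined pool was also compared with the M1-like mock macrophages of the same experiment. Against M1-like mock macrophages, 6 of 10 genes passed, 5 higher and 1 lower, where 52.9% of all genes passed. Cd5l was 8.53-fold (3.09 ± 0.39, adjusted p = 7.84e-08), Gas6 4.60-fold (2.20 ± 0.15, adjusted p = 1.03e-13), Axl 2.46-fold (1.30 ± 0.18, adjusted p = 3.25e-07), Msr1 2.35-fold (1.24 ± 0.14, adjusted p = 4.82e-09) and Stab1 2.02-fold higher (1.01 ± 0.26, adjusted p = 0.00148), and Scarb2 was lower (-0.26 ± 0.07, adjusted p = 0.00286). Pros1 (39.4, 44.5 and 35.5 CPM against 38.0, 39.8 and 42.8 CPM), Scarb1 (57.8, 57.8 and 50.8 CPM against 57.3, 48.6 and 49.1 CPM) and Mertk (113, 115 and 103 CPM against 124, 121 and 111 CPM) overlapped between these groups. Their differences were -0.01 ± 0.11, 0.10 ± 0.10 and -0.11 ± 0.09. For Mertk this holds for the M1-like level of this experiment only. At 24 h in the polarization experiment, Mertk was higher in M1-like than M2-like macrophages (3.02). Marco did not pass either, with a wider error (0.25 ± 0.47). Fibroblast markers were higher in 6 of 6, B cell markers in 7 of 7 and mesothelial markers in 4 of 4 tested, and their part in the higher levels of Gas6 and Cd5l was not tested.

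Across the 12 conditions of the reprogramming experiment, the span from the highest to the lowest mean was 18.8-fold for Marco, 12.3-fold for Cd5l, 9.34-fold for Gas6, 7.38-fold for Stab1, 5.80-fold for Axl, 2.93-fold for Pros1, 2.36-fold for Msr1, 1.73-fold for Scarb1, 1.69-fold for Mertk and 1.43-fold for Scarb2. Marco was highest in untransfected M0 (58.1 ± 17.3 CPM, SD, n = 3), apart from all that followed, and lowest in mock M0 macrophages (3.08 ± 2.31). Axl was ordered most clearly, with replicate ranges apart for 6 of 11 neighbouring conditions, from the combined pool (253 ± 16.2) and the pool against Myc (252 ± 14.1) down to untransfected M0 (43.6 ± 3.99). Gas6 and Cd5l had both M1-like groups at the lower end, Gas6 at 9.11 ± 1.88 and 9.66 ± 0.922 and Cd5l at 13.7 ± 3.45 and 11.3 ± 1.91 CPM. Pros1 was highest in untransfected M2-like macrophages (110 ± 6.20) and lowest with the pool against Myc (37.6 ± 3.14), which overlapped with the combined pool and both M1-like groups. For Mertk, ranges were apart in 0 of 11 neighbouring conditions, and for the other genes in 1 or 2.

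**Figure D5:**
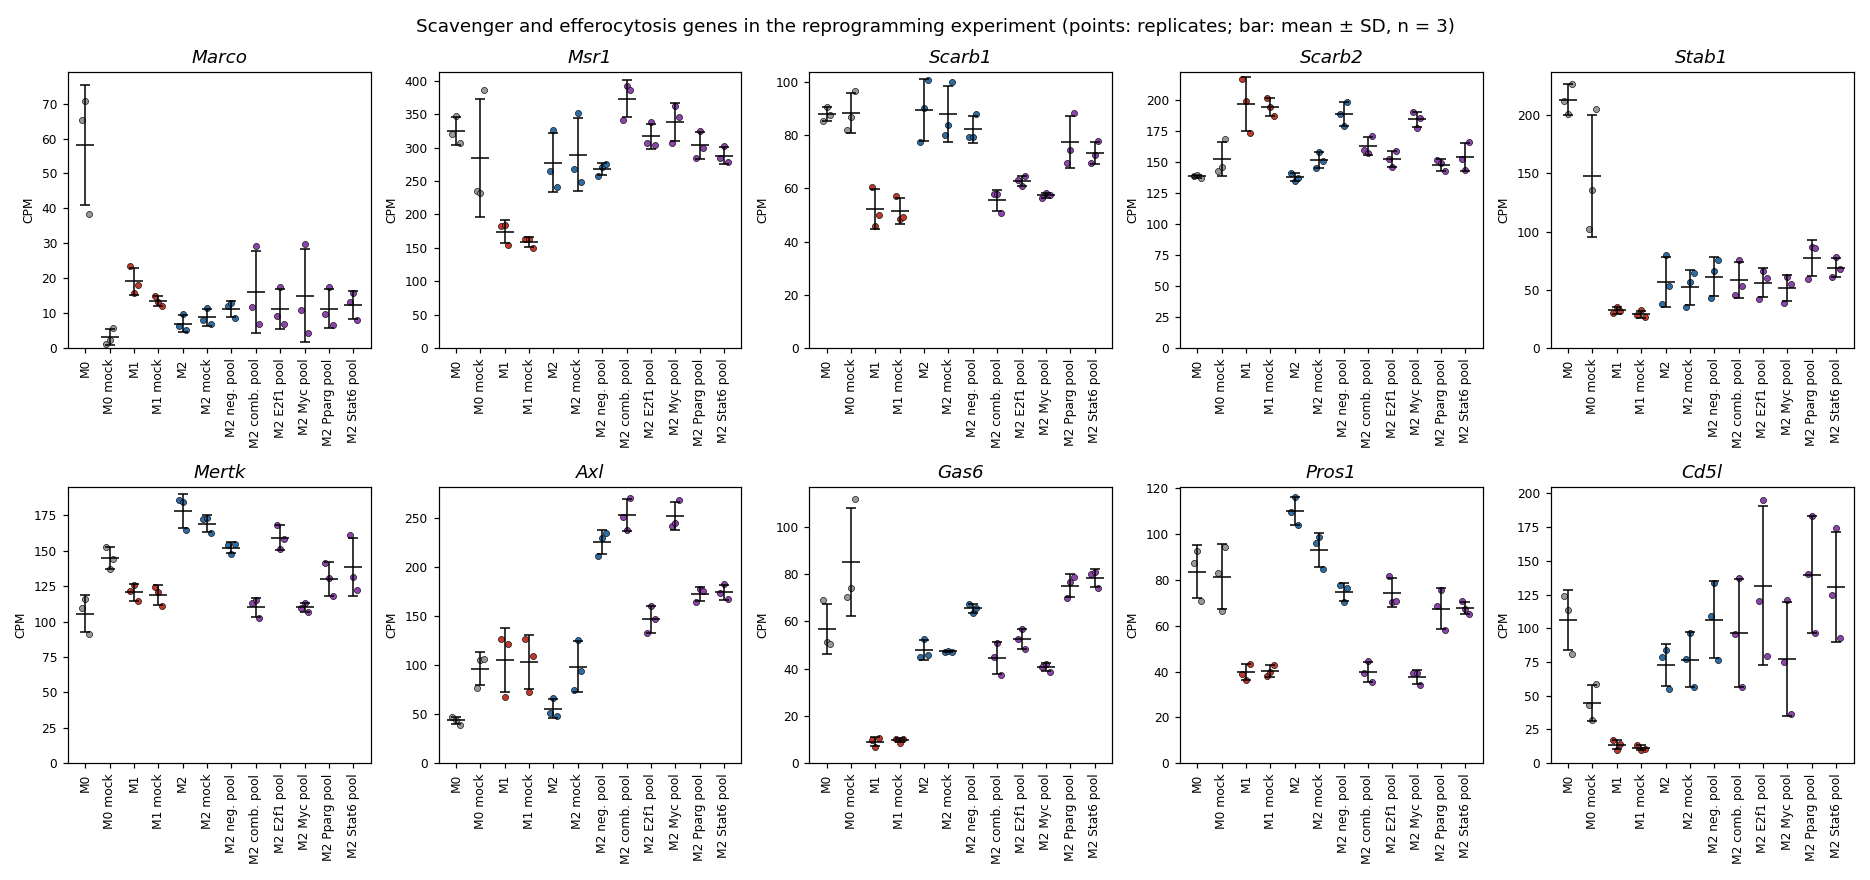
Levels of the 10 genes in the reprogramming experiment in CPM (vertical axes, from 0) in the 12 conditions (horizontal axes; M1 and M2 stand for M1-like and M2-like, neg. and comb. for the negative and the combined pool). Points are the 3 replicates and bars the mean ± SD. Marco stands out in untransfected M0 macrophages (58.1 CPM), and Pros1 is near 40.2 CPM in mock M1-like macrophages as well as with the combined pool and the pool against Myc.

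By condition means of log2 CPM over the 12 conditions, Pros1 was most like Mbnl1 (r = 0.99), Ptpa (0.99) and Ctsf (0.99) among 10130 genes compared, Axl most like Rhou (0.99), Gm1821 (0.99) and Nt5c3 (0.98), and Gas6 most like the B cell and myeloid tetraspanin Cd37 (0.98), Tubb2b (0.98) and Plcg2 (0.98). Cd5l was most like the complement gene C1qa (0.97), Cped1 (0.97) and Bin1 (0.97), Stab1 most like Uap1l1 (0.97), Fmnl1 (0.95) and Xylt2 (0.94), and Mertk most like Eif2ak1 (0.97), Cln8 (0.95) and Rnft1 (0.93). Msr1 was most like Arf1 (0.97), Bub3 (0.96) and Eif3a (0.96), Scarb1 most like Abcb1b (0.98), Abhd4 (0.97) and Pcna (0.97), Scarb2 most like Pex11a (0.94), Hmga1 (0.92) and Birc2 (0.92), and Marco most like Slpi (0.93), Ell2 (0.92) and Ttc14 (0.91). Among the 10 genes themselves, the closest pairs were Scarb1 and Pros1 (0.92), Gas6 and Cd5l (0.89) and Msr1 and Cd5l (0.88). These correlations are descriptions over 12 points, 8 of which are M2-like conditions, and they share libraries.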

How the data were processed

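Read counts per gene of 54 libraries were used. Trimming with Trimmomatic, alignment to mm10 with TopHat2 (so named in the submitters' processing notes) and counting per gene with featureCounts were done by the authors, who deposited the counts without normalization, and versions, annotation release, strandedness and the handling of reads with several hits are not given in the sources used here. Reads were single-end of 50 nucleotides in the polarization experiment and 150 nucleotides long in the reprogramming experiment, and the experiments were never fitted together. Of 39179 identifiers, 37607 had a symbol in the reference tables. The 2 technical replicates per mouse and condition differed by a chi-square per gene of 1.07 to 1.09, against 3.47 to 48.6 between mice of 1 condition, and were summed.

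Genes were filtered with filterByExpr of edgeR 4.0.16 (minimum count 10, minimum total count 15), scaled with TMM and compared with the quasi-likelihood test (two-sided), in 1 model per experiment with 1 coefficient per condition, in R 4.3.3. Adjusted p-values are Benjamini-Hochberg values over all genes tested, and genes with an adjusted p under 0.05 were called. SE is the size of a log2 fold change divided by the square root of F. DESeq2 1.42.0, the tool named in the methods of the study, was an alternative, besides the replicate block, RLE size factors, a minimum of 10 counts in all samples, no filter, unsummed technical replicates, models of the compared groups alone, a minimum change of 1 on the log2 scale, mock as the reference, and leaving out each replicate in turn. On simulated counts, 193 of 200 genes changed 2-fold were recovered for M1-like against M2-like macrophages of the polarization experiment (15941 genes), and 195 of 200 for the combined against the negative pool (13744 genes). Of the unchanged genes, 8 and 12 were called. The simulation used the same spread for all genes and changed only genes with higher counts. It does not give the recovery for genes with a wider spread, such as Marco and Cd5l. As many genes were raised as lowered, and only 200 were changed, where 72.6% and 26.5% of all genes passed in the data. Scaling with that many changed genes was not tested.

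Mouse numbers pair the samples of the polarization experiment, where deviations from the condition means had a median correlation of 0.25 for the same mouse and -0.14 for different mice. Numbers of the reprogramming experiment are shared without a stated source. The 10 genes, the gene lists and the tests were chosen with earlier results of these data known, and the contrasts between mock effects were added after seeing the data. Named in the text are the 10 genes, the siRNA targets and, per pathway list and comparison, up to 3 called genes with the largest change, replicates that did not overlap and a mean log2 CPM from 2 upwards, besides the 3 genes most like each member. Marker lists are given as counts and sums, and marker genes named with values were chosen after their values were seen. Promoters are from RefSeq (GRCm38.p6), with a match for 8 of 10 genes.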

Additional observations from a re-analysis of the deposited data

Results flagged for a closer look

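The difference between mock and untransfected macrophages, in which the reagent and a possible difference in culture time cannot be told apart, itself differed between macrophage states in contrasts added after seeing the data. For M0 minus M1-like macrophages the difference in log2 fold change was -3.73 for Marco, 0.48 for Mertk and 1.18 for Axl, and for M0 minus M2-like macrophages it was -4.56 for Marco and 0.53 for Mertk, each past the test by edgeR.

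The experiments gave opposite directions for 3 genes, with replicates that did not overlap in either experiment, and these differences were not tested. Marco was higher in M1-like than in M0 macrophages of the polarization experiment (2.003) and lower in untransfected macrophages of the reprogramming experiment (-1.61). In mock it was higher (2.13), as in the polarization experiment. Mertk was higher in M1-like than in M0 macrophages of the polarization experiment (2.76) and lower in mock (-0.29), while untransfected macrophages gave 0.19, which did not pass. For M2-like against M0 macrophages, Mertk was at -0.27 in the polarization experiment, 0.75 in untransfected and 0.23 in mock macrophages, the last of which did not pass. For M1-like against M2-like macrophages, Mertk was at 3.02, -0.56 and -0.51, and Stab1 at 0.97, -0.82 and -0.84. The directions of Mertk and Stab1 between M1-like and M2-like macrophages were thus opposite to the polarization experiment without transfection as well as in mock, with close values. The experiments also differ in time, with harvest at 24 h of polarization in the polarization experiment. Mock M1-like and M2-like macrophages were harvested 48 h after transfection, which followed 24 h of polarization. Sequencing centre, single-end or paired-end reads, read length and the libraries differ as well. These differences cannot be told apart here.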

How the results depend on the processing

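Of the single values of the 10 genes that were called, 1290 kept their direction and their side of the threshold under an alternative, 93 kept the direction and lost the call, and 3 turned. The 3 are Scarb2 against mock in place of the negative pool, with 0.10 for the combined pool, 0.0077 for the pool against E2f1 and 0.025 for that against Stat6. Of the values not called, 26 were gained without a filter on low counts, 14 with mock as the reference, 13 with the replicate block, 10 with the compared groups alone and 4 with DESeq2. With mock as the reference, those of Axl with the pools against E2f1, Pparg and Stat6, given in the report, and of Scarb2 with the pool against Myc (0.28) had turned in direction. The cause was not tested. Counts of called genes below are given with the count of the report first.

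With a change of 1 or more on the log2 scale required in addition, which leaves fewer genes by construction, the count went from 4 to 2 for M2-like against M0 macrophages in the polarization experiment and untransfected, from 10 to 4 and from 8 to 3 for M1-like against M2-like macrophages untransfected and in mock, from 9 to 5 and from 2 to 1 for mock M1-like and M2-like against M0, from 5 to 3 and from 1 to 0 for mock against untransfected M0 and M2-like macrophages, and from 3 to 1 for the negative pool. It went from 5 to 2 and from 6 to 0 for the combined pool against mock and against the negative pool, from 4 to 0 for the pool against Myc, from 1 to 0 for those against E2f1, Pparg and Stat6, and from 2 to 1 for the mock effect of M0 minus M2-like macrophages. Without a filter on low counts it went from 2 to 4 for mock M2-like against M0, from 3 to 5 for the negative pool, from 1 to 3, 4 to 7 and 1 to 4 for the pools against E2f1, Myc and Pparg, from 0 to 1 for the interaction, and from 3 to 5 and 2 to 4 for the differences between mock effects. For the pool against E2f1, DESeq2 gave 2, at least 10 counts in every sample 2, the compared groups alone 5 and mock as the reference 3. For Pparg the last 2 gave 2 and 4, and for Stat6 mock as the reference gave 4. The cause was not tested.

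With the replicate block, no call was lost and 13 were gained. In the polarization experiment these are the calls of Cd5l and Marco given in the report. In the reprogramming experiment, where samples share only a number (correlation of same-numbered samples with a median of 0.18 and a lowest value of -0.25, beside a median of -0.083 for other samples, and a lowest value of -0.056 for the same mouse in the polarization experiment), Mertk passed for untransfected M1-like against M0 macrophages (0.19, adjusted p = 0.0173), the count was 2 for the pools against E2f1 and Pparg and 4 for the mock effect of M0 minus M2-like macrophages, and Marco and Cd5l kept 1 order of replicates in 8 of 8 M2-like conditions. Without 1 replicate in turn, the count ranged from 0 to 1 for mock against untransfected M2-like macrophages, for the pools against E2f1 and Stat6, and for the interaction, and from 9 to 9, 4 to 5 and 8 to 10 for the comparisons of the polarization experiment. Gas6 in M1-like macrophages of the polarization experiment, at 1.25 to 2.03 CPM, was the lowest level among the 10 genes.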
